A study of Drosophila melanogaster with 2 samples.

Results

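CG43689 is an uncharacterized Drosophila melanogaster gene, and its product was mapped by chromatin immunoprecipitation followed by sequencing (ChIP-seq), which recovers the DNA to which a protein is attached directly or through partners. The peaks described here are those at single, non-divergent promoters. They were taken from the main thresholded list called on both replicates together, on the main chromosome arms. A peak was kept when its summit, the position of highest signal, was no more than 500 bp from a start site of any annotated gene. It also had to have either no protein-coding start site within that distance, or a nearest coding start site with no opposite-strand coding start site within 1000 bp upstream. Entry to the thresholded list was set by the authors' cut-off, so the members are already selected peaks. Within that list the rule uses positions and the annotation, not the signal. It gave 587 peaks, which is 61.7% (Wilson 95% interval 58.5 to 64.7) of the 952 main peaks at promoters and part of the 2062 main peaks on the arms. Of these, 520 lay at single coding promoters and 67 near the start of noncoding genes only. The other 365 promoter peaks lay at divergent promoters.

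Both samples were whole embryos aged 8 to 24 h of the transgenic strain CG43689-GFP, which expresses CG43689 fused to eGFP. Chromatin was sonicated to a size range of 200 to 800 bp and precipitated with an antibody to GFP according to the sample descriptions, while another label field names the antibody as CG43689. The 2 samples are biological replicates of 1 group that share a donor strain, and no other genotype, stage or control library was analysed here. Whole embryos mix all cell types, so a peak cannot be assigned to a tissue, and a fusion protein can be recovered differently from the native one. The replicate lists held 1253 and 1265 peaks and the main list 2088. The files hold peaks and no read counts, so the depth of each library is unknown.

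A promoter is the DNA around the start of a gene at which RNA polymerase II is loaded. In the compact fly genome many genes are arranged head to head, so that one stretch of open DNA serves a pair of genes running in opposite directions. Where no such partner starts upstream, the sides of a peak can be read from the strand of its one nearest gene. Fly promoters differ in their core elements. The TATA box, the initiator and the downstream promoter element (DPE) occur mostly at developmentally regulated genes, whereas the DNA replication-related element (DRE) and Ohler motifs 1, 6 and 7 occur mostly at broadly expressed genes, and a polypyrimidine initiator called TCT marks genes of the translation machinery.

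The DNA under a selection of strong peaks is shown to let the base composition be read beside the values. The sequences below are the 81 bp centred on the summit, read 5′ to 3′ on the strand of the nearest coding gene (for lncRNA:CR44619, of that noncoding gene) from the RefSeq dm6 genome. Capitals mark every unbroken run of at least 6 bases that are all A or T. The peaks at CG14100 and CG18549 were the strongest of the coding ones shown, those at gish, CG1635 and osp illustrate the A/T-rich type, MFS10 and TRAM the less A/T-rich type, and lncRNA:CR44619 the strongest peak without a coding start site nearby.
CG14100 (3L:19590589-19590669, minus strand): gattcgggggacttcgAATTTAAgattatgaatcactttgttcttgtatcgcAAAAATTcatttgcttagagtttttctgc
CG18549 (3R:12449124-12449204, plus strand): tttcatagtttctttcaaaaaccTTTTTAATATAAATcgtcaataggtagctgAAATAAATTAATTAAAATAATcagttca
gish (3R:16280701-16280781, plus strand): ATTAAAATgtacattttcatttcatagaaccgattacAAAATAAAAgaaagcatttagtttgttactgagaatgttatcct
CG1635 (3R:31588485-31588565, plus strand): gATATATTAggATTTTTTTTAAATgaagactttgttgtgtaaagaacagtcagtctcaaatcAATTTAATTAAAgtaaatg
osp (2L:14689499-14689579, minus strand): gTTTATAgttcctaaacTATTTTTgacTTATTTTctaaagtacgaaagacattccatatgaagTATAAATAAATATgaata
TRAM (X:935313-935393, plus strand): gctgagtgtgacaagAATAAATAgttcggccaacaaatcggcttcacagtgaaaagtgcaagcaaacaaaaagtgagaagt
MFS10 (X:13131307-13131387, plus strand): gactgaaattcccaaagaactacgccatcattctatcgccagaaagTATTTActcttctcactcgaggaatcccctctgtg
lncRNA:CR44619 (X:12751367-12751447, plus strand): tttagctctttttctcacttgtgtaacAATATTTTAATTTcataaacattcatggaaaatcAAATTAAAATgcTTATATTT
In these 81 bp windows, CG18549 and lncRNA:CR44619 each held 64 A or T bases, osp 63, CG1635 62 and gish 61. CG14100 held 53, TRAM 48 and MFS10 45. The longest A/T run was 21 bases at CG18549, 13 at osp, at CG1635 and at lncRNA:CR44619, 9 at gish, 8 at TRAM, 7 at CG14100 and 6 at MFS10. Strong peaks were thus found on both A/T-rich and mixed sequence. The examples were chosen to illustrate both types, so they do not show how common each type is.

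The strongest peaks at single coding promoters lay just upstream of a wide range of genes. Signal is the authors' own value per peak, whose scale is not given in the sources used here and differs between lists. At CG14100 (FBgn0036889) the peak (3L:19590490-19590736) had a signal of 1036 in the main list, 479 in the ranked list of replicate 1 and 556 in that of replicate 2, and its summit lay 105 bp upstream of the start site. At CG18549 (FBgn0038053; 3R:12449064-12449262) the values were 603, 262 and 340, with the summit 132 bp upstream. The peak at gish (FBgn0250823; 3R:16280613-16280836), a casein kinase gene, had 587, 297 and 319 and lay 148 bp upstream. In all 3 the replicates were within 1.31-fold of each other, the largest ratio among the 20 strongest.

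Among the same 20 peaks, 19 lay upstream, between 73 and 273 bp from the start site, and all 20 were in the lists of both replicates. The one that lay downstream was at GstE13, a glutathione transferase gene, 84 bp into its 5' UTR (main signal 523, replicates 249 and 275). The others included peaks at eIF6, an anti-association factor of the large ribosomal subunit (604), Fkbp14, a prolyl isomerase of the secretory pathway (541), px, a wing vein patterning gene (507), TRAM, a protein of the translocon at the endoplasmic reticulum (484), and Tina-1 (443). Further down were papi, a Tudor-domain partner of piRNA proteins (396), Sox14, an HMG-box transcription factor (396), Rtnl1, a reticulon that shapes the endoplasmic reticulum (384), Btk, a tyrosine kinase (383), msi, the RNA-binding protein Musashi (380), and Sesn, a sestrin (370). GC content within 50 bp of the summit ran from 21.8% to 43.6% among the 20, and 14 of them were at or under 32%. CG1888 (489), MFS10 (423), CG1635 (423), osp (417) and RluA-1 (377) complete the set.

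Across all 587 peaks the main signal ran from 3.93 to 1036 with a median of 94.7 and quartiles of 70.9 and 154. Replicate 1 gave a ranked signal at 584 of them, with a median of 50.03, and replicate 2 at 574, with a median of 52.0. Where both gave one (571 peaks), 90.02% were within 2-fold of each other and Spearman's rho was 0.709. These values are a description only. The members came from a list called on both replicates together and thresholded by the irreproducible discovery rate, so their selection favoured agreement. Both libraries also share the same genome and strain. The thresholded list of replicate 1 held 374 of the members, that of replicate 2 held 385, both held 292 (49.7%), 1 of them held 175, and neither held 120. Divergent promoter peaks were in both lists at a rate of 50.7% (185 of 365). The odds ratio of single against divergent was 0.963 (Fisher's exact test, two-sided, adjusted p = 0.790), so a difference in replicate support was not detected. Among peaks at or above the median signal the direction turned, with 86.0% of single and 78.7% of divergent peaks in both lists (odds ratio 1.67, Fisher's exact test, adjusted p = 0.0380). Main peaks at or above the median signal of all main peaks on the arms, 88.1, made up 54.9% of the single and 61.6% of the divergent peaks (odds ratio 0.756, Fisher's exact test, raw p = 0.0432, adjusted p = 0.0555), which did not pass the threshold of 0.05. It did pass with a promoter window of 1000 bp (odds ratio 0.725, Fisher's exact test, adjusted p = 0.0126), a spacing limit of 500 bp (0.620, adjusted p = 0.00160) and one of 2000 bp (0.741, adjusted p = 0.0325).

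**Figure D1:**
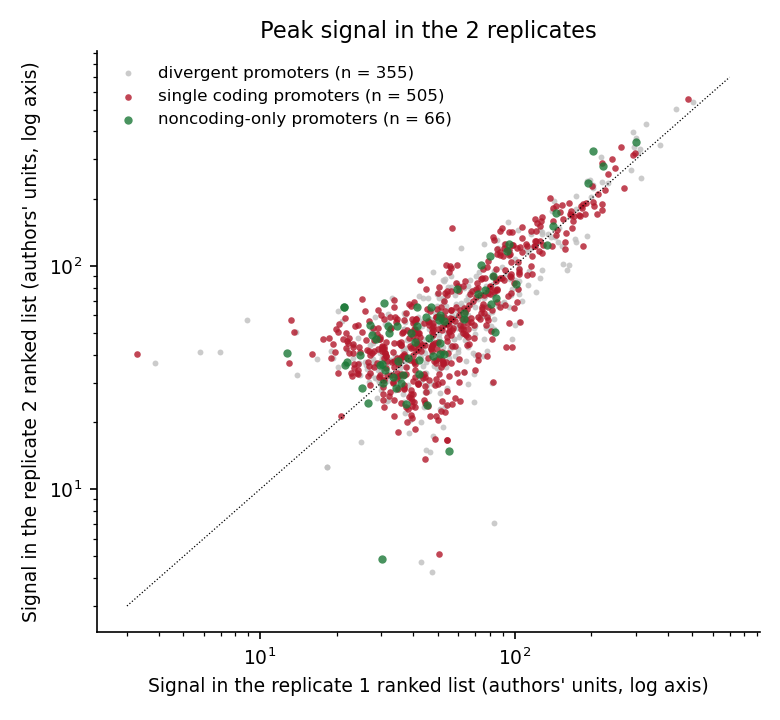
Signal of each promoter peak in the ranked list of replicate 1 (x axis) and replicate 2 (y axis), in the authors' units on log axes; the dotted line marks equal values. Red points are 505 single coding, green points 66 noncoding-only and grey points 355 divergent promoter peaks, and the 3 kinds lie along one cloud that widens below about 100.

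Replicate support went with the strength of the peak. The pooled signal and the replicate lists come from the same libraries, so they are not independent measures. Cut into quintiles by main signal, the strongest quintile (179 to 1036) was in both replicate lists at a rate of 100%, the next at 92.3%, the third at 48.7%, the fourth at 3.42% and the weakest at 4.24%. Most members with a main signal of 82.5 or less, the top of the fourth quintile, were therefore not thresholded peaks of both replicates. The share of coding members upstream of the start site was 92.5% in the strongest quintile and 66.7% in the weakest. The mean GC content at the summit was 30.7% in the strongest quintile and 41.4% in the weakest.

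The 13 members with a signal under 20 had a feature in common: all 13 overlapped another main peak, whose summit lay 199 to 224 bp away. The 5 weakest were at mthl5 (3.93), larp (4.52), CG2747 (5.48), P5CDh1 (6.28) and lncRNA:CR44651 (6.796). At P5CDh1, a proline catabolism gene, the replicates' overlapping peaks had signals of 56.2 and 63.2, far above the main value, but their summits lay 199 and 175 bp from the member's summit. Over these 13 the median distance to the nearest replicate summit was 175 bp in replicate 1 and 168 bp in replicate 2 (12 with a value), against 13 and 15 bp over all members with a value. In all, 31 members overlapped another main peak, and the lowest signal of a member that overlapped none was 44.5.

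Members lay mostly upstream, as did divergent peaks. Of the 520 summits at single coding promoters, 428 (82.3%, Wilson 95% interval 78.8 to 85.3) were upstream of the nearest coding start site, and the median position was -159.5 bp (negative values are upstream), with quartiles of -256.75 and -59.5 bp. The comparison set was the candidate summits of the pooled ranked list that did not enter the main list: 15400 lay at single promoters, of which 12472 were at coding ones. Of these, 43.9% were upstream, with a median position of 53 bp downstream. The odds ratio was 5.94 (Fisher's exact test, two-sided, adjusted p = 9.37e-69). The stretch from 50 to 250 bp upstream held 50.6% of the members and 17.7% of the other candidates, while within 50 bp of the start site the shares were 9.23% and 10.9%.

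**Figure D2:**
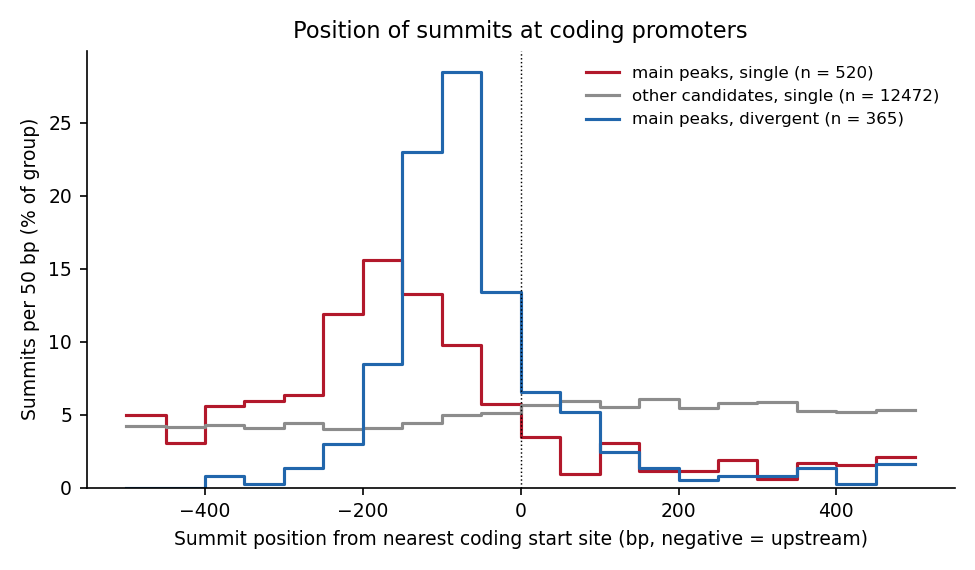
Share of summits in each 50 bp bin (y axis, % of the group) by position from the nearest coding start site (x axis, bp, negative upstream). Main peaks at single coding promoters (red, n = 520) are highest between 50 and 250 bp upstream, the other candidates (grey, n = 12472) are spread nearly evenly, and main peaks at divergent promoters (blue, n = 365) are shown for their own range, which the spacing of the pair limits.

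The place of the summit went with its other features. The 263 members 50 to 250 bp upstream had a median signal of 108, a mean GC content of 32.6% ± 10.1 (SD) and were in both replicate lists at a rate of 58.2%. The 135 members farther upstream had 91.1, 32.7% ± 8.53 and 47.4%. Summits within 50 bp of the start site, 48 in all, had 86.6, 45.4% ± 10.04 and 43.8%, and the 92 downstream summits, some of which are also within 50 bp, had 74.6, 40.3% ± 11.3 and 32.6%. Divergent summits had a median position of -83 bp from the nearest start site, with 288 of 365 (78.9%) upstream and 63.0% from 50 to 250 bp upstream, and the upstream share was not tested against that of the members. The spacing of the head-to-head pair limits how far upstream a divergent summit can lie, so this median is not compared with that of the members.

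Candidate summits at single promoters were called less often than those at divergent ones. The unit counted is the summit, and a promoter can hold several, so these are not shares of promoters. Of the 15987 candidate summits at single promoters, 587 entered the main list, a share of 3.67%. At divergent promoters 365 of 3564 did, a share of 10.2% (odds ratio 0.334, Fisher's exact test, two-sided, adjusted p = 3.32e-50). The 15987 include noncoding-only candidates, which the shares by side leave out. At coding promoters the gap was present on each side of the start site. Among upstream candidates 7.25% of the single coding and 25.8% of the divergent summits were called, and among downstream candidates 1.30% and 3.15%. These shares on each side were not tested.

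The summits lay in a local dip of GC content. In 438 of the 580 members with a difference, the DNA within 50 bp of the summit had a lower GC content than the mean of 2 flank windows of the same length centred 400 bp away (75.5%, exact sign test, two-sided, adjusted p = 1.36e-35). The mean was 35.0% ± 10.9 (SD, n = 587) at the summit and 43.4% ± 7.34 in the flanks. The 15400 other candidates went the other way, with a mean of 46.5% ± 9.87 at the summit. They also differed in place: 43.9% of the coding ones lay upstream, against 82.3% of the coding members. GC content was not compared at matched positions. Divergent summits were lower in GC content than the members, at 32.6% ± 10.6 (n = 365). GC content at or below 32.7%, the median of all promoter summits, was found in 50.1% of single and 60% of divergent peaks (odds ratio 0.669, Fisher's exact test, two-sided, adjusted p = 0.00487). In the list of replicate 1 alone this odds ratio was 0.744 (Fisher's exact test, adjusted p = 0.116), and in the conservative list 0.765 (adjusted p = 0.0836), neither past the threshold. The dip was not universal: 142 of the 580 members had a higher GC content at the summit than in the flanks. At the summit, 68 members had a GC content of 50% or more.

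**Figure D3:**
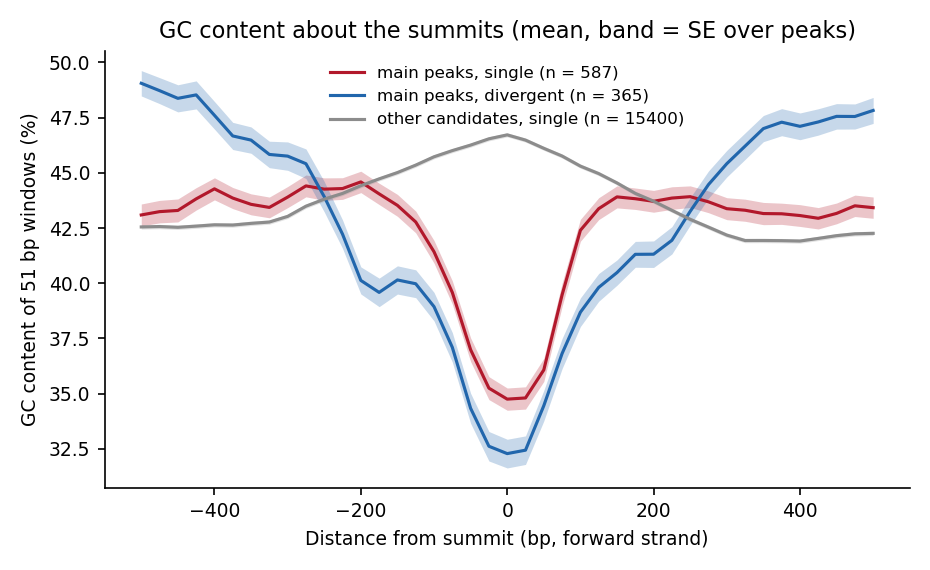
Mean GC content of 51 bp windows (y axis, %) by distance from the summit on the forward strand (x axis, bp); bands are the standard error over peaks. Main peaks at single promoters (red, n = 587) fall to 34.8% at the summit, main peaks at divergent promoters (blue, n = 365) to 32.3%, and the other candidates at single promoters (grey, n = 15400) rise to 46.7%.

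Words rich in A and T were more frequent at the summits than in their flanks. All 2080 6-mers were counted with their reverse complements, as present or absent within 50 bp of the summit and in 1 flank window of the same length, and 38 (1.83%) were more frequent at the summit and 11 (0.529%) less frequent at an adjusted p under 0.05 by exact McNemar test. Every one of the 38 had at least 4 A or T letters, and 20 of the 36 words made only of A and T were among them, while the other 18 held a G or C. The 11 lower words had 1 to 3 A or T letters. The most significant, AAATAT, was in 33.9% of summits and 15.7% of flanks (exact McNemar test, adjusted p = 4.03e-09). Next came ATTTTA, in 29.98% and 14.7% (exact McNemar test, adjusted p = 4.62e-07), and TAAAAA, in 32.2% and 17.0% (adjusted p = 9.52e-07). The word with the lowest adjusted p among those lower at the summit was GCAGGA, in 0.852% against 5.79% (exact McNemar test, adjusted p = 4.59e-04). Words share letters and overlap each other, so the 38 are not independent. The summits were also lower in GC content than their flanks, as given above. Words were not compared at matched GC content, so these counts are not a result separate from that difference.

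Of 25 named motifs searched on both strands, 4 (16%) differed between summits and flanks. A run of 12 bases that are all A or T was in 33.2% of summits, 17.0% of flanks and 10.9% of the other candidates (exact McNemar test, adjusted p = 2.72e-09). The short TATA motif (TATA, then A or T, then A, then A or T) was in 23.3%, 14.0% and 9.10% (exact McNemar test, adjusted p = 7.28e-04), and the forkhead motif (T, A or G, TTTA, C or T) in 22.1%, 15.3% and 10.2% (adjusted p = 0.0326). The CA repeat CACACACA was lower, in 0.511%, 2.39% and 2.33% (exact McNemar test, adjusted p = 0.0462). The first of these motifs overlaps the short TATA motif in letters. The motifs more frequent at summits are made mostly of A and T, and they were not compared at matched GC content either. The other candidates also differed from members in their position about the start site, which was not matched. The forkhead and CA repeat calls were lost in most other peak lists, with adjusted p from 0.0527 to 0.148 for forkhead in both single-replicate lists, the conservative list, the list of peaks found in both replicates and the stronger peaks. The ratio of members with forkhead at the summit only to those with it in the flank only was 1.42 to 1.68 in these, against 1.56 in the main list. Over all alternatives other than leaving out a replicate, this ratio fell as low as 1.27 and the adjusted p reached 0.694 (exact McNemar test). Apart from the A/T run, no motif searched was in more than 23.7% of summits, the share of the initiator, which was in 22.5% of flanks.

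Longer A/T tracts showed the same order. In the 81 bp at the summit the longest unbroken run of A and T had a median of 9 bases in members, 10 at divergent peaks, 7 in the members' flanks and 6 in the other candidates at single promoters. A run of at least 10 was present in 43.6%, 55.9%, 25.7% and 17.1% of them. These values are a description, were not tested and were not matched for position about the start site.

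Against divergent peaks, 5 of the 25 motifs (20%) differed, and all were less frequent at single promoters. The run of 12 A or T was in 33.2% of single and 45.5% of divergent summits (Fisher's exact test, two-sided, adjusted p = 0.00507), CGATA, the core bound by the insulator protein BEAF-32, in 13.1% and 21.4% (adjusted p = 0.0109), and the homeodomain motif TAATTA in 8.52% and 15.1% (adjusted p = 0.0125). DRE (A or T, ATCGAT, A or T) was in 2.39% and 6.30% (Fisher's exact test, adjusted p = 0.0156), and Ohler motif 7 in 1.02% and 4.38% (adjusted p = 0.0109). DRE contains CGAT, so it overlaps CGATA where A follows. None of the 5 passed in the list of either replicate alone, where the counts of motifs that differed were 0 and 0. The odds ratios there stayed below 1: in the list of replicate 2 and that of replicate 1 they were 0.317 and 0.304 for DRE, against 0.363 in the main list. For the homeodomain motif they were 0.623 and 0.566 against 0.525, and for the run of 12 A or T 0.684 and 0.621 against 0.596. For Ohler motif 7 they ran from 0.379 to 0.402, against 0.225 in the main list. For CGATA they ran from 0.673 to 0.708, against 0.556. Apart from DRE, the odds ratios were thus nearer to 1 than in the main list. The lists of single replicates hold fewer peaks. Divergent summits were also lower in GC content, and these motifs were not compared at matched GC content.

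At the start sites themselves, rather than at the summits, single promoters with a main peak differed from those without. Each distinct coding start site was searched on its own strand, 507 with a main peak and 8456 with other candidates only, and 6 of 10 core elements (60%) differed. The TATA box (the short motif above, 45 to 15 bp upstream) was in 2.17% of the sites with a main peak and 11.7% of the others (odds ratio 0.168, Fisher's exact test, two-sided, adjusted p = 1.07e-13). At the summits, in a longer window read on both strands, the same letters were in 23.3% of members and 9.10% of the other candidates. Set against the other candidates, they were thus more frequent at the summits but less frequent at the place where a TATA box acts. The windows differ in length and strand, so the share at summits is not compared with that at start sites.

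The other called elements were more frequent with a main peak. The motif of the GAGA factor (GAGAGAG, up to 150 bp upstream) was in 7.69% against 3.32% (odds ratio 2.42, Fisher's exact test, adjusted p = 2.67e-05). Within 50 bp of the summits, on both strands, it was not more frequent: 1.70% of members, 2.21% of flanks and 1.77% of the other candidates. DPE (A or G, G, A or T, CGTG, 15 to 45 bp downstream) was in 4.14% against 1.49% (odds ratio 2.86, Fisher's exact test, adjusted p = 2.51e-04), and the initiator (TCA, G or T, T, C or T, within 10 bp) in 22.3% against 16.9% (odds ratio 1.41, adjusted p = 0.00604). The initiator call was lost with a promoter window of 250 bp (odds ratio 1.22, Fisher's exact test, adjusted p = 0.170). TCT was in 1.58% against 0.579% (odds ratio 2.75, Fisher's exact test, adjusted p = 0.0238) and Ohler motif 7 in 3.75% against 1.96% (odds ratio 1.94, adjusted p = 0.0238). The TCT call was lost with a 250 bp window (odds ratio 3.09, Fisher's exact test, adjusted p = 0.0510) and with a spacing limit of 2000 bp (odds ratio 2.28, adjusted p = 0.104). In peaks found in both replicate lists the Ohler motif 7 odds ratio was 0.964 (Fisher's exact test, adjusted p = 1.00), so its direction did not hold. DRE, Ohler motifs 1 and 6, and CGATA were not called, with DRE in 3.75% against 5.46% (Fisher's exact test, adjusted p = 0.149). A match of letters is not a bound site.

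**Figure D4:**
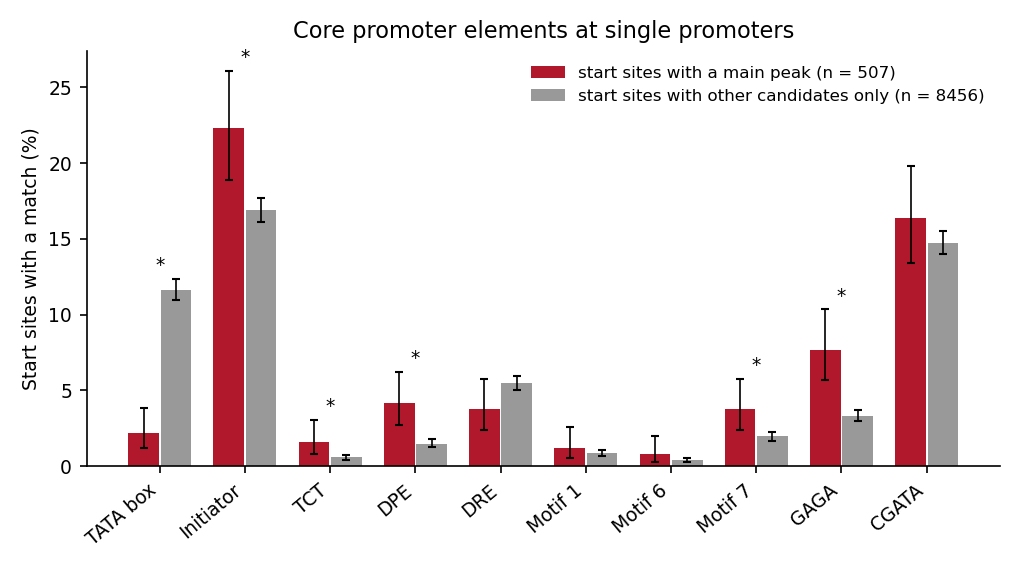
Share of coding start sites at single promoters with a match to each core element (y axis, %), for 507 sites with a main peak (red) and 8456 with other candidates only (grey); bars show Wilson 95% intervals and stars an adjusted p under 0.05. The TATA box stands at 2.17% and 11.7%, and GAGA at 7.69% and 3.32%.

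By annotation at the summit, 243 members were intergenic, 225 intronic, 68 in a 5' UTR, 29 in another exon, 13 in coding sequence and 9 in a 3' UTR. Among coding members at genes with start sites over 500 bp apart, 78 of 269 (29.0%) lay at the most upstream start site, and 1345 of 4428 other candidates (30.4%) did (odds ratio 0.936, Fisher's exact test, adjusted p = 0.767). A preference for first or internal promoters was not detected. Of the 520, 71 (13.7%) had a summit inside another gene, 29 on the same strand and 42 on the opposite one, against 23.5% of the other candidates (odds ratio 0.514, Fisher's exact test, adjusted p = 8.85e-08). The peaks of MFS10 and TRAM are examples, with summits inside CG15717 and CG32815.

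The 520 peaks fell on 486 genes, 30 of them with at least 2 members and 3 with at least 3. dnc, the cAMP phosphodiesterase gene dunce known for its role in learning, had 4 (main signals 215, 133, 85.5 and 73.8). Of these, 3 lay 305, 374 and 356 bp upstream of their start sites and the weakest 187 bp downstream. Rtnl1 had 3 (384, 193 and 94.8), which lay 260, 208 and 287 bp upstream, and Ptpmeg2, a tyrosine phosphatase gene, had 3 (303, 214 and 208), which lay 185, 187 and 158 bp upstream. These 3 genes were chosen after their values were seen. Members also had neighbours of any class: 51.1% had another main summit within 10 kb.

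Genes with a member were long. The median annotated length was 6810.5 bp for the 486 genes with a main peak, 2202 bp for the 6675 genes with other candidates only, and 2358 bp for the 356 genes at divergent main peaks. A length at or above 2308 bp was found in 77.0% of the first and 48.0% of the second group (odds ratio 3.61, Fisher's exact test, two-sided, adjusted p = 1.25e-35). Because genes with several start sites can hold several candidates, genes with 1 start-site region were also compared alone. Among them, the share at or above their own median of 1718 bp was 68.4% of 244 against 49.2% of 5257 (odds ratio 2.24, Fisher's exact test, adjusted p = 7.66e-09). The median position was -181 bp in members at genes of 2308 bp or more (n = 406) and -97.5 bp at shorter ones (n = 114), while their median signals were 96.3 and 95.4. These comparisons were added after the data were seen.

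The X chromosome held 19.9% of the single promoter peaks (117 of 587) and 8.77% of the divergent ones (32 of 365; odds ratio 2.59, Fisher's exact test, two-sided, adjusted p = 3.25e-06). Among the other candidates the X shares were 15.6% at single and 16.5% at divergent promoters. Set against the former, the single members were higher on X (odds ratio 1.34, Fisher's exact test, adjusted p = 0.00666), but with a promoter window of 250 bp the odds ratio was 1.13 (adjusted p = 0.356). In called shares, single candidates stood at 4.63% on X and 3.49% on the autosomes, and divergent candidates at 5.72% and 11.1%. X and autosomal coding members, not tested against each other, had median signals of 104 and 94.4, mean GC contents of 34.6% ± 9.86 and 34.9% ± 10.9 (SD, n = 108 and 412) and upstream shares of 83.3% and 82.0%. None of the 587 lay on arm 4. The X comparisons were added after the data were seen, and the sex of the embryos was not recorded.

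Gene lists were read against a background of all coding genes with a candidate summit at a single promoter. Of these 7161 genes, 486 (6.79%) had a member there. This background covers single promoters only. It was not matched for gene length, although genes with a member were longer, as given above. At divergent promoters no share over all genes was counted, and 10.2% of all candidate summits there were called. Cytoplasmic ribosomal protein genes stood at 13 of 29 (44.8%, Wilson 95% interval 28.4 to 62.5), and at divergent promoters at 22 of 39 (56.4%). The strongest were RpL23A (main signal 209; replicates 112 and 91.1), RpL24 (172; 84.7 and 87.3) and RpL22 (168; 94.4 and 73.5). In each of these the 2 replicates lay within 1.31-fold of each other.

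The summits of the ribosomal protein members lay between 81 bp upstream and 29 bp downstream of the start site, with a median of -18 bp. Their GC content was 49.96% ± 4.71 (SD, n = 13), from 41.6% to 59.4%, and was lower than that of the flanks in 3 of 13. The other 507 coding members had 34.4% ± 10.5 and were lower than their flanks in 389. The median signal was 108 against 95.7, and 8 of 13 were in both replicate lists. These features were noticed in the data, the list was chosen with earlier results known, and no test was made.

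Other lists of broadly expressed genes were not tested against these or the background. Proteasome genes had 0 of 17, respiratory chain genes 0 of 24 and mitochondrial ribosomal protein genes 0 of 5 at single promoters, with Wilson upper limits of 18.4%, 13.8% and 43.4%. At divergent promoters the counts were 5 of 24 for mitochondrial ribosomal protein, 2 of 20 for respiratory chain and 1 of 11 for proteasome genes. Translation factors and tRNA synthetases had 3 of 27 at single promoters and 6 of 26 at divergent ones. The 3 were eIF6 (604), the elongation factor eEF1gamma (303) and eEF1alpha1 (109). Cell cycle and replication genes had 1 of 11 at single promoters and 0 of 5 at divergent ones. The 1 was Dp, the partner of E2F factors, with 2 peaks (126 and 66.2).

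Genes of particular tissues also had members. Neuronal and glial genes had 5 of 19: moody, a receptor of the blood-brain barrier glia (337; replicates 167 and 170), elav, a neuronal RNA-binding protein (243; 119 and 123), the synaptic adhesion gene Nrx-1 (114; 66.4 and 44.9), dlg1 and Gli. Homeobox and segmentation genes had 7 of 32, led by bowl (210; 83.4 and 131), tin, the heart and visceral mesoderm homeobox gene (157; 56.0 and 100.4), and Dll, the limb homeobox gene (110; 49.8 and 59.9), and including bcd, nkd, cnc and hry. Muscle genes had 3 of 14: Msp300, a nesprin (237; 111 and 126), tin again, and sls, the titin-like gene (129; 75.6 and 61.6). At tin the 2 replicates differed more than at the others, and its peak was not in the lists of both. The Wilson intervals of the 3 lists, in the order given, were 11.8 to 48.8%, 11.0 to 38.8% and 7.57 to 47.6%.

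Cuticle protein genes, many of which are clustered and expressed late in embryos, stood at 1 of 92 (1.09%, Wilson 95% interval 0.192 to 5.90), the member being Cpr51A (61.2; replicates 13.7 and 50.6), whose summit lay 278 bp downstream. Heat shock and chaperone genes had 2 of 13, the small heat shock genes Hsp27 (295; 128 and 166) and Hsp26 (119; 61.0 and 54.4). Among insulator and promoter-binding proteins 1 of 4 had a member, Trl, which encodes the GAGA factor (167; 85.4 and 78.1). CG43689 itself had no main summit.

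**Figure D5:**
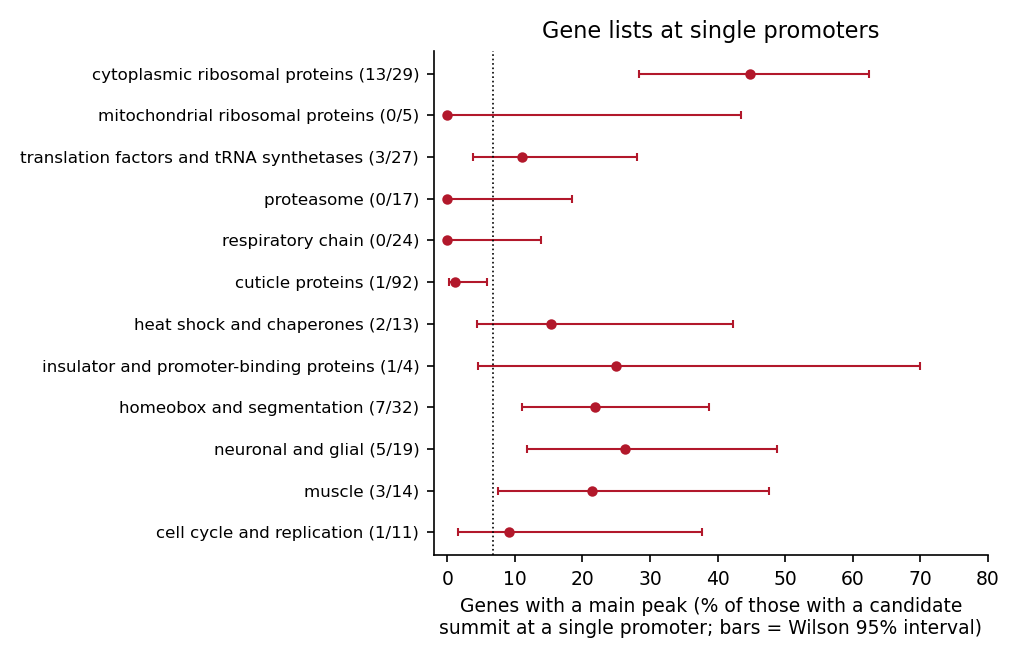
Share of the genes of each list with a main peak among those with a candidate summit at a single promoter (x axis, %); bars are Wilson 95% intervals, the counts stand beside each name, and the dotted line is the 6.79% over all coding genes. Cytoplasmic ribosomal proteins are at 44.8% and cuticle proteins at 1.09%.

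Of the 67 noncoding-only members, 66 lay near the start of a noncoding RNA gene and 1 near that of a small nucleolar RNA gene. Their distance from the nearest coding start site was 532 to 40476 bp, with a median of 3695 bp. They made up 11.4% of the members and 19.0% of the other candidates at single promoters (odds ratio 0.549, Fisher's exact test, two-sided, adjusted p = 2.59e-06). The strongest was at lncRNA:CR44619 (X:12751261-12751538; main signal 657, replicates 301 and 359), with its summit 460 bp upstream of that gene. The next was at lncRNA:CR31840 (2L:14023969-14024189; 528, 203 and 326), with its summit 9 bp downstream. lncRNA:CR44339 (500; 223 and 279) and lncRNA:CR31044 (428; 195 and 235) followed, with summits 161 and 109 bp upstream.

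lncRNA:CR46036 (310; 146 and 172) and lncRNA:CR44810 (291; 142 and 151) completed the 6 strongest. The functions of these RNAs are not described here. As a group their values were near those of coding members, with a median signal of 89.7 against 96.1, a mean GC content of 36.5% ± 11.997 against 34.8% ± 10.7 (SD), support in both replicate lists of 44.8% against 50.4%, and 41 of 67 upstream of the noncoding start. These differences were not tested.

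The peaks nearest the limits of the rule are given as a description. Just inside 500 bp were CG31523 (496 bp, signal 108), lncRNA:CR44363 (492 bp, 261) and CG10543 (490 bp, 97.4), and just outside were peaks near bin3 (502 bp, 65.9), lncRNA:CR44619 (503 bp, 379) and Cdk8 (503 bp, 3.95). The spacing limit of 1000 bp kept Eno, the glycolytic enolase gene (opposite start site 1015 bp away, signal 200), Nrx-1 (1024 bp, 114) and qtc (1025 bp, 74.2). It left out RpS7 (1000 bp, 97.0), Pax (977 bp, 98.3) and Ank2 (955 bp, 143). Of the coding members, 68 had an opposite coding start site more than 1000 and up to 2000 bp upstream, 24 a noncoding one within 1000 bp upstream and 5 a coding one within 1000 bp downstream.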

How the data were processed

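The authors deposited peak lists on dm6 from ChIP-seq of 2 biological replicates; per the deposited file descriptions, thresholding used the irreproducible discovery rate. Each peak carries the authors' signal value, which served to sort and describe peaks of the same list and, as a description, to set the replicates side by side. No aligner or peak caller is named in the labels or file descriptions used here. Main peaks came from the pooled thresholded list, and the other candidates from its pooled ranked list without them; a conservative list and each replicate's list served as alternatives. A replicate's signal is that of the overlapping ranked peak with the nearest summit, and support is an overlap of 1 bp or more with both replicate lists. Start sites were those of Ensembl 115 (transposon and pseudogene models left out); the RefSeq dm6 genome gave sequences, and 99.6% of 6945 forward-strand coding genes began with ATG in it.

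Tests were Fisher's exact, exact sign and exact McNemar, two-sided, adjusted by Benjamini-Hochberg within families (9 planned tests, 4 added ones, 25 motifs, 2080 6-mers, 10 core elements), at 0.05. Their p-values concern where peaks lie and say nothing of variation between embryos, and neighbouring peaks and genes are not independent. Wilson intervals cover counting error only. The members and lists were chosen with earlier results of these data known. Genes named were the 20 strongest coding and 6 strongest noncoding-only members, up to 3 members of each list, the 5 weakest, those nearest the limits of the rule, and CG43689. The genes with 3 or more members, those named as hosts and the remaining members of the neuronal and segmentation lists were chosen after their values were seen. Of the list symbols, Pita, Psq, Z4 and Unc-89 matched no gene. The tests were checked on simulated data. Python 3.11.15, numpy 2.4.6, scipy 1.17.1, pandas 2.3.3 and matplotlib 3.10.9 were used.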

Additional observations from a re-analysis of the deposited data

How the results depend on the processing

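Of 420 recomputed values, 335 kept their direction and their side of the threshold, or, for shares and counts, stayed within the Wilson interval or within 1.5 times of the value reported. The share of single promoters among promoter peaks was 53.1% with a 250 bp window, 66.5% with 1000 bp, 70.2% with a spacing limit of 500 bp and 54.5% with 2000 bp. The odds ratio for replicate support was 1.02 in the conservative list and 1.67 among peaks at or above the median signal (Fisher's exact test, adjusted p = 0.0380); with 1 replicate left out it ran from 0.788 to 1.01. The odds ratio for high signal was 0.725 with a 1000 bp window, 0.620 with a spacing limit of 500 bp and 0.741 with 2000 bp, all past the threshold. For low GC it was 0.765 in the conservative list and 0.594 to 0.744 with 1 replicate left out. For the first start site it was 1.01 in the conservative list, 1.00 without overlapping main peaks and 0.971 to 1.12 with 1 replicate left out. The X share against other candidates had an odds ratio of 1.13 with a 250 bp window. Motifs that differed from divergent peaks numbered 1 among peaks of both replicate lists, 2 among stronger peaks, 0 with a spacing limit of 2000 bp, and 0 to 0 with 1 replicate left out. Motifs that differed from flanks numbered 2 in the conservative list, in peaks of both lists, in stronger peaks, with a 250 bp window, with sequences reaching 100 bp from the summit and with 1 replicate left out (2 to 2). Called 6-mers numbered 27 in peaks of both lists, 18 with a 250 bp window, 105 with 1000 bp, 30 with a spacing limit of 2000 bp and 82 with sequences reaching 100 bp from the summit, against 49. Core elements called fell to 3 with a 250 bp window, and Ohler motif 7 at start sites had an odds ratio of 0.964 in peaks of both lists. The cause was not tested. The alternative without overlapping main peaks, and those on X and gene length, were chosen after seeing the data. No paired analysis was possible because the 2 replicates form 1 group.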
